A study of Mus musculus with 2 samples.

Results

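Nuclear genes of oxidative phosphorylation were followed in single-cell RNA sequencing of retinal endothelial cells at postnatal day (P) 6 and P15. They were taken by symbol, as the genes whose names start with Ndufa, Ndufb, Ndufc, Ndufs, Ndufv, Sdha to Sdhd, Uqcr, Cox4 to Cox8 or Atp5, without rows named as pseudogenes (-ps). This gave 93 genes of the 24610 gene symbols with a row in either table, and 92 of them had a row in both. By textbook role 80 encode subunits of the complexes, 8 are complex I assembly factors (Ndufaf1 to Ndufaf8) and 2 are other factors (Cox7a2l and Atp5s). The other 3, Ndufb4c, Ndufs6b and Cox6c2, are annotated as processed pseudogenes. They are called copies of a subunit gene here, and stayed in the set because their symbols lack -ps. Cox8b, the only gene without a P6 row, had 0 UMIs in the P15 cells analysed.

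Both libraries came from wild-type C57BL/6 mice, with retinal cells sorted by FACS as CD31+ (an endothelial surface protein) and CD45- (without the surface protein of blood cells), and differed by label only in age. There was 1 droplet library per age, so age cannot be told apart from library, and no test across samples was possible. Each mRNA captured carried a unique molecular identifier (UMI), and levels are given as CPM, the UMIs of a gene for every 1000000 UMIs of the same cells. Intervals in parentheses are 95% limits of counting error only, exact Poisson for levels and conditional binomial for ratios of P15 to P6, and cells are not replicates.

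The cells that met the exclusion criteria of the study, as read here, numbered 1424 at P6 (7647084 UMIs, median 4985 per cell) and 1644 at P15 (7370319 UMIs, median 4214 per cell). Cluster labels were at hand for 1560 P6 cells and for 438 P15 cells, the latter the part of the P15 labels in the copy of the source data used here. Of the labelled cells, all of which the study had kept, 1399 at P6 and 409 at P15 met the criteria as read here. This reading thus differs from the filter of the study. Values by cluster include all labelled cells. The libraries shared 7 barcodes, and 25 P6 and 24 P15 barcodes held both Xist and Y-linked UMIs. All 8 endothelial markers were found, from 360.3 CPM (Tie1) to 5585 (Cldn5) at P6 and from 362.4 (Kdr) to 9957 (Cldn5) at P15. Summed marker lists named for other cells were mostly higher at P15: the 10 pericyte genes stood at 13.7 and 339.3 CPM at P6 and P15, the 10 rod genes at 45.1 and 122.5, the Muller glia genes at 679.3 and 1845, the erythroid genes at 22.6 and 172.6, the immune genes at 2.22 and 5.97 and the astrocyte genes at 7.58 and 14.3, while the neural genes stood at 57.5 and 25.6. Glul (366.4 and 1161) and Apoe (309.4 and 613.9) made up most of the Muller glia sum, which in labelled cells was highest in the Arterial and Cap-Arterial clusters (1868 and 2103 CPM at P6, 3689 and 3307 at P15). Of the other genes of that list Rlbp1 stood at 1.31 and 63.6, Slc1a3 at 0.523 and 0.9498, Dkk3 at 0.523 and 1.63 and Car14 at 1.18 and 2.99. Aqp4, without a P6 row, stood at 0.271 at P15. Stmn2 (53.8 and 24.3) made up most of the neural sum. In labelled cells the neural sum was highest in the Arterial cluster, at 1189 CPM at P6 and 285.3 at P15. In the cells that met the criteria Cspg4 at P6, Neurod1 and Hbb-bt at both ages, Alas2 at P6 and Tubb3 at P15 were at 0, and Neurod1 and Hbb-bt were among the genes by which cells were excluded.

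Oxidative phosphorylation takes place in the inner mitochondrial membrane. Complexes I and II pass electrons from NADH and succinate to ubiquinone, complex III passes them to cytochrome c and complex IV to oxygen, and complex V, the ATP synthase, uses the proton gradient to make ATP. Most subunits are encoded in the nucleus and imported, whereas a few core subunits and the mitochondrial ribosomal RNAs are encoded by mitochondrial DNA, and growing endothelial cells are known to take much of their ATP from glycolysis.

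The stretches of promoter shown here belong to genes on which the results turn: Cox6b1 and Cox8a, the 2 highest per kilobase of exon at P6, Cox7b, Cox8a and Atp5k, lower at P15, and Ndufa8, higher at P15. They run from 100 bases before the annotated start to 25 bases from it on, 5′ to 3′ on the strand of the gene, and are RefSeq sequences of GRCm38.p6. Capitals mark the letters GCGCATGCG, bound by the respiratory regulator NRF1, and CCGGAAG, bound by ETS factors such as GABPA, on either strand.
Cox6b1, chr7:30626090-30626214, minus strand: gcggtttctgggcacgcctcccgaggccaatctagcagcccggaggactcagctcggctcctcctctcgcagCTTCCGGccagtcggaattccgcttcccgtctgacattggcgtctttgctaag
Cox8a, chr19:7217592-7217716, minus strand: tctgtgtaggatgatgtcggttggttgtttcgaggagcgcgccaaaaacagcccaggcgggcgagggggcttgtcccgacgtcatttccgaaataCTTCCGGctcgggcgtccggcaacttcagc
Atp5k, chr5:108434375-108434499, minus strand: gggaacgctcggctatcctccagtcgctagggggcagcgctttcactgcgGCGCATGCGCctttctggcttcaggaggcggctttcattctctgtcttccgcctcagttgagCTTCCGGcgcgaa
Cox7b, chrX:106015600-106015724, plus strand: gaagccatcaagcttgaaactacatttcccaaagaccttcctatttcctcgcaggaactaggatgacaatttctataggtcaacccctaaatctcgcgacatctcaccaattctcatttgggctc
Ndufa8, chr2:36049314-36049438, minus strand: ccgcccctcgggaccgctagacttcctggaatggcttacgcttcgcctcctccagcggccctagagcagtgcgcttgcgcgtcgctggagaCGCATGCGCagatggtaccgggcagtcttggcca

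RefSeq promoter windows of 250 bases before and 50 after the start were at hand for 73 of the 93 genes (78 windows) and for 27025 gene symbols in all (32851 windows). On either strand GCGCATGCG lay in a window of 10 of the 73 genes (13.7%), against 1.95% of all 27025 symbols. The 10 were Atp5g2, Atp5k, Atp5l, Cox6a1, Ndufa11, Ndufa8, Ndufaf4, Ndufaf5, Uqcr11 and Uqcrc1, so that the letters occurred both in genes that were lower at P15 (Atp5k) and in genes that were higher (Ndufa8). CCGGAAG was found for 18 genes (24.7%, against 9.93% of all), and AAGATGGCG, letters bound by YY1, for 8 genes (10.96%, against 1.64%). The short letters ACGTG, bound by hypoxia-inducible factors, were found for 17 genes (23.3%, against 21.8%), and CCAAT for 32 genes (43.8%, against 41.1%). GCGCATGCG overlaps its own reverse complement, and one place, as in Atp5k, can match on both strands. In the Cox7b window only CCAAT was found of these 5. These are matches of letters and not measured binding. The set of all symbols was not matched to the members in expression or base content.

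As a sum, the nuclear oxidative phosphorylation genes were lower in the P15 library. They took 28266 CPM at P6 (28147 to 28385) and 24957 at P15 (24843 to 25072), a ratio of 0.883 (0.877 to 0.889). Complex IV and complex V carried the difference in sum, and complexes I, II and III stood close to a ratio of 1. Complex I subunits summed to 8531 and 8210 CPM at P6 and P15 (ratio 0.962, 0.952 to 0.973), complex II to 584.0 and 579.6 (0.993, 0.952 to 1.03), and complex III to 3149 and 3152 (1.001, 0.983 to 1.02). Complex IV subunits summed to 7563 and 6035 (0.798, 0.788 to 0.808) and complex V subunits to 7615 and 6218 (0.817, 0.807 to 0.827). The complex III sum includes Uqcrb, with a ratio of 1.42. Median ratios of subunits with at least 100 UMIs over both libraries were 0.968, 0.9995, 0.954, 0.806 and 0.809 in complexes I to V. The 8 complex I assembly factors were low throughout, at 293.7 and 262.4 (0.893, 0.840 to 0.9499).

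**Figure D1:**
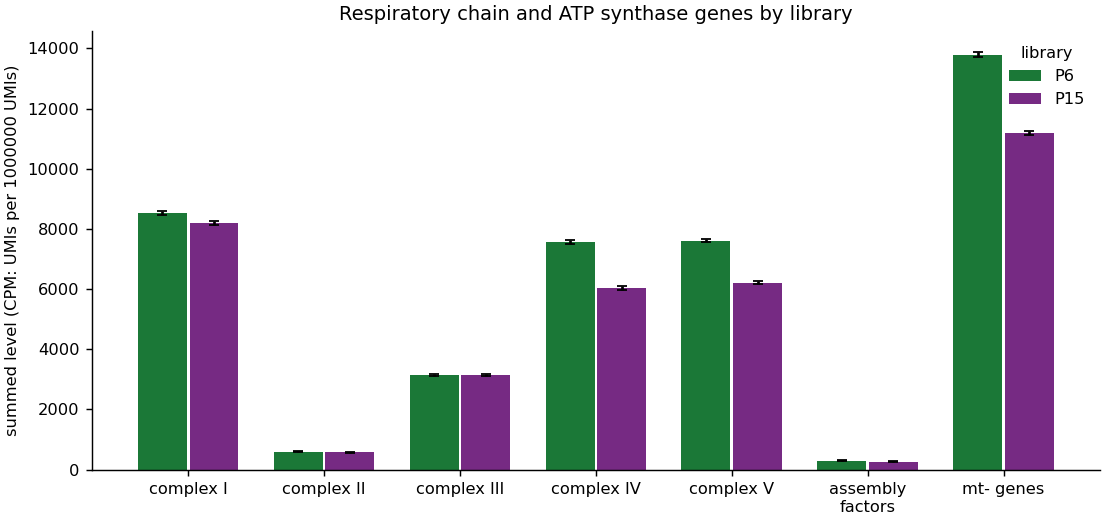
Summed CPM (y axis) for the subunits of each complex, the complex I assembly factors and the mt- genes with a row in both tables (x axis), as bars for the P6 and P15 libraries with 95% counting intervals. Complexes IV and V and the mt- genes are lower at P15, while complexes II and III have bars of nearly the same height.

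These ratios depend on what the total holds. The genes of cytosolic ribosomal proteins took 202916 CPM at P6 and 117917 at P15 (ratio 0.581), and 60.0% of the 9382 genes with at least 100 UMIs over both libraries had a ratio above 1. The median ratio of those genes was 1.09, a shift of 0.12 on the log2 scale. Relative to that median the summed members stood at 0.810, and with mt- and ribosomal protein UMIs taken out of the total at 0.794. On those 2 scales complex IV stood at 0.732 and 0.718, complex V at 0.749 and 0.734, complex I at 0.882 and 0.866, complex II at 0.910 and 0.893 and complex III at 0.918 and 0.900.

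Of the 92 genes with a row in both tables, 89 had at least 100 UMIs over both libraries, the minimum for a ratio to be counted. Their median ratio was 0.883, with quartiles of 0.811 and 1.03. Ratios were counted as low at or below 0.8 and as high at or above the inverse of 0.8. High ratios were found for 5 of the 89, against 33.3% of all genes with that minimum, and low ratios for 20, a share close to the 19.3% of all genes. Relative to the median of all genes the counts were 3 and 42 (against 25.1% and 25.9% of all genes), and without mt- and ribosomal protein UMIs 3 and 45 (against 23.4% and 27.8%). With labelled clusters at equal weight the counts were 8 and 10 of 87 (against 30.1% and 22.5%). The 5 with high ratios were Cox4i2, Ndufa4l2, Uqcrb, Ndufa8 and Ndufaf3. Ratios above 1 were held by 28 of the 89 genes, by 16 above the median of all genes and by 12 above 1 without mt- and ribosomal protein UMIs.

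**Figure D2:**
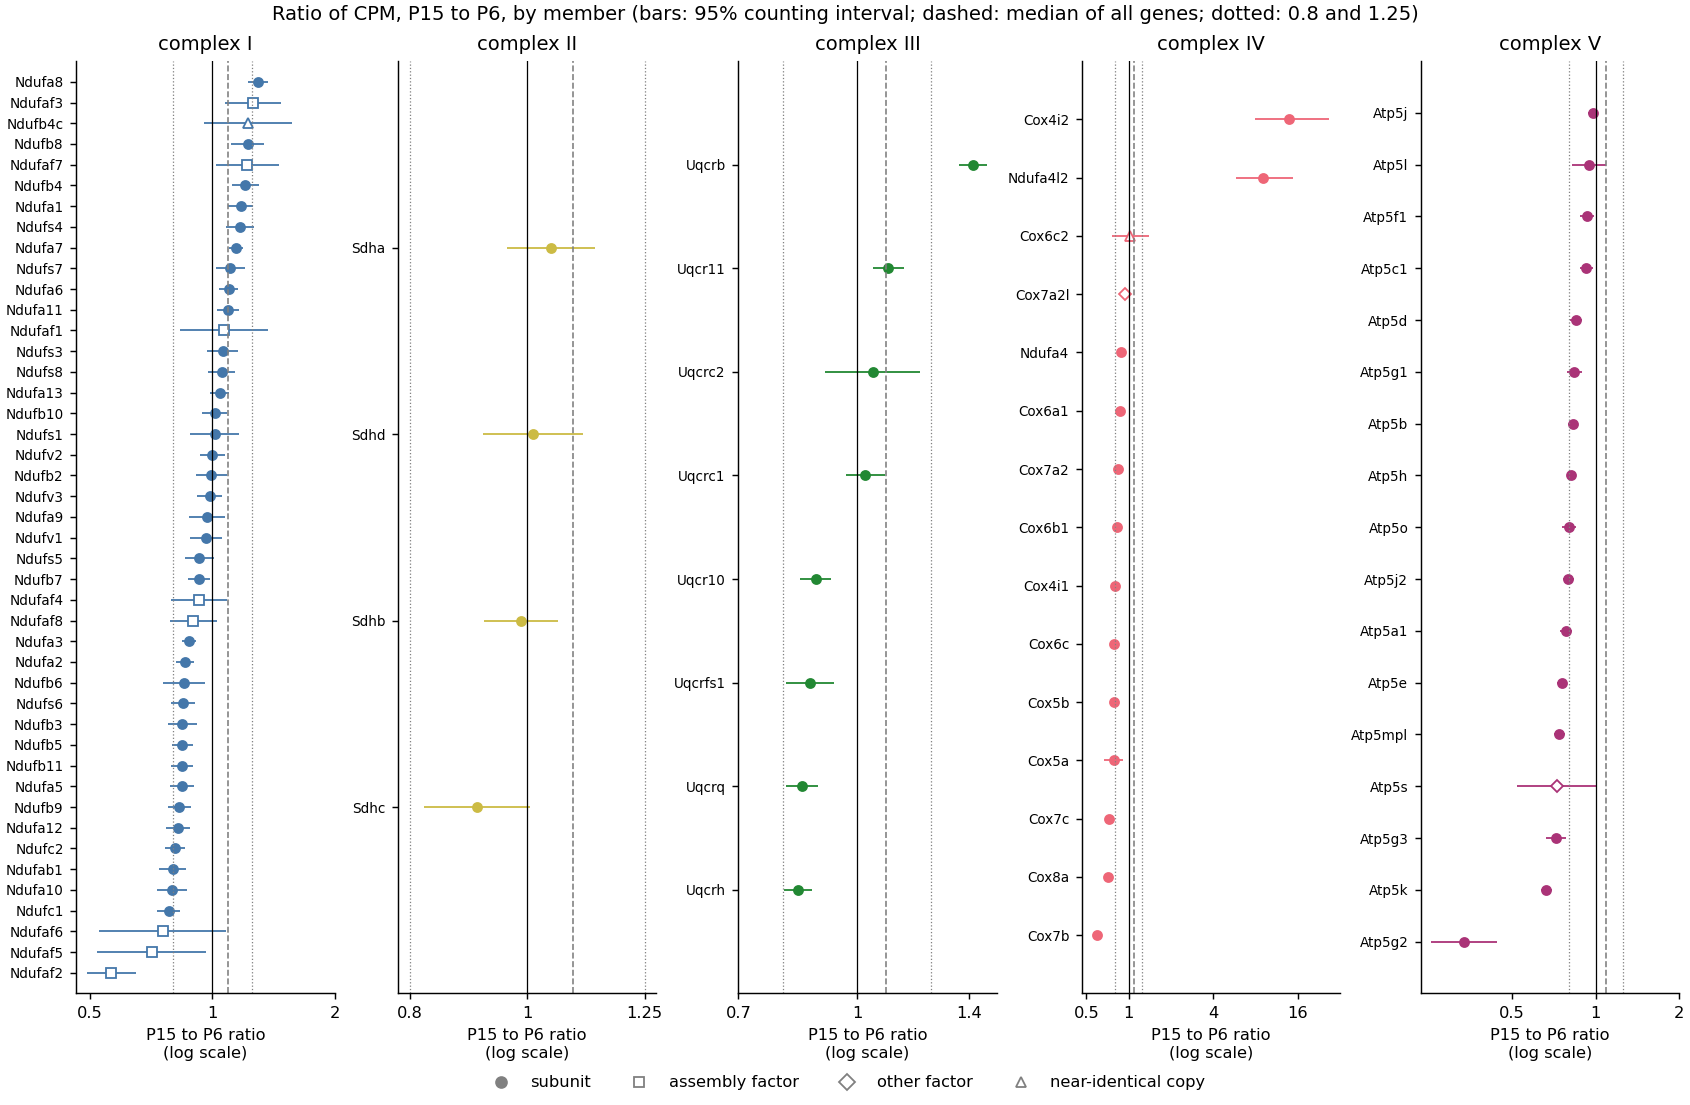
Ratio of CPM of P15 to P6 (x axis, log scale, a scale of its own in each panel) for members with at least 100 UMIs, by complex, with 95% counting intervals. Filled circles are subunits, and open symbols are assembly factors, other factors and copies annotated as processed pseudogenes. All 16 complex V subunits lie left of the solid line at 1, and Cox4i2 and Ndufa4l2 lie far to the right of the other complex IV genes.

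In complex I the subunits that carry electrons stood near a ratio of 1. Ndufv1, the flavoprotein that oxidises NADH, had 125.8 CPM at P6 and 121.4 at P15 (ratio 0.965, 0.880 to 1.06), and its iron-sulfur neighbour Ndufv2 stood at 196.7 CPM in both libraries (0.930 to 1.08). The iron-sulfur proteins Ndufs1 (55.3 and 56.0, 1.01, 0.882 to 1.16), Ndufs8 (173.3 and 182.8, 1.05, 0.977 to 1.14) and Ndufs7 (151.3 and 167.4, 1.11, 1.02 to 1.20) and the core subunit Ndufs3 (128.5 and 136.2, 1.06, 0.969 to 1.16) were slightly higher at P15. Of these genes Ndufs7 alone had an interval without 1 and a ratio above the median of all genes, and none had a high or low ratio.

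The accessory subunits of complex I spread to both sides. Ndufa8, a small cysteine-rich subunit on the intermembrane side, had 275.0 CPM at P6 (263.4 to 287.0) and 356.2 at P15 (342.7 to 370.0), a ratio of 1.30 (1.22 to 1.37), the largest of the 36 complex I subunits. Ndufb8 (104.9 and 128.1, ratio 1.22), Ndufb4 (173.8 and 209.6, 1.21), Ndufa1 (196.0 and 230.1, 1.17), Ndufs4 (159.3 and 186.0, 1.17) and Ndufa7 (557.1 and 636.9, 1.14) followed on the CPM scale. At the other end were Ndufc1 (262.7 and 205.0, 0.780), Ndufa10 (169.6 and 135.1, 0.797) and Ndufab1, the mitochondrial acyl carrier protein (207.4 and 165.7, 0.799). The pseudogene copy Ndufb4c (15.9 and 19.5, 1.23, 0.956 to 1.57) had a ratio like that of Ndufb4, and reads of the pair may not be told apart by the counting. For this reason both are uncertain, as is Ndufs6 beside its copy Ndufs6b, which had 6 and 9 UMIs.

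Among the assembly factors, which help to build complex I and leave it when it is complete, Ndufaf2 was the lowest in ratio. It had 75.2 CPM at P6 (69.2 to 81.6) and 42.5 at P15 (37.9 to 47.4), a ratio of 0.565 (0.491 to 0.649). Ndufaf3 (38.3 and 48.2, 1.26, 1.07 to 1.47) and Ndufaf7 (30.7 and 37.4, 1.22, 1.02 to 1.46) had the highest ratios, whereas Ndufaf5 (14.1 and 10.0, 0.711) and Ndufaf6 (10.1 and 7.60, 0.755, 0.525 to 1.08) rested on fewer UMIs. Of the 8 factors 1 had a high ratio and 3 had a low one.

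Complex II, which also works in the citric acid cycle, had no gene with a high or low ratio. The flavoprotein Sdha had 146.1 and 152.9 CPM (ratio 1.05, 0.963 to 1.14), the iron-sulfur subunit Sdhb 210.5 and 208.0 (0.988, 0.921 to 1.06), and the membrane anchors Sdhc 109.5 and 99.5 (0.909, 0.822 to 1.005) and Sdhd 118.0 and 119.3 (1.01, 0.920 to 1.11). All 4 ratios lay below the median ratio of all genes, and none of the 4 intervals excluded 1.

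The near-equal sums of complex III hid 1 gene that stood apart. Uqcrb, a small subunit at the ubiquinone-binding side (chr13:66900617-66905378), had 514.4 CPM at P6 (498.5 to 530.8) and 729.0 at P15 (709.6 to 748.8), a ratio of 1.42 (1.36 to 1.48). Uqcr11 was next (444.9 and 488.6, 1.10), and the core proteins Uqcrc1 (299.6 and 307.2, 1.03) and Uqcrc2 (50.5 and 52.9, 1.05) stood near 1. The Rieske iron-sulfur protein Uqcrfs1 (215.8 and 187.4, 0.868), Uqcr10 (503.6 and 444.8, 0.883), Uqcrq (471.7 and 399.7, 0.847) and the hinge protein Uqcrh (648.4 and 542.9, 0.837) were lower at P15. Of 8 subunits 4 had a ratio above 1 and 4 below 1, and only Uqcrb and Uqcr11 were above the median of all genes.

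In complex IV the subunits found in most tissues were lower at P15, without exception among those with 100 UMIs or more. Cox4i1, the common form of the subunit through which ATP inhibits the complex, had 1313 CPM at P6 and 1058 at P15 (ratio 0.806, 0.782 to 0.830). The lowest ratios were those of Cox7b with 378.6 and 226.4 (0.598, 0.563 to 0.636), Cox8a with 713.3 and 511.9 (0.718, 0.688 to 0.748) and Cox7c with 886.9 and 639.5 (0.721, 0.695 to 0.748). The intervals of Cox7b at P6 and P15 lay far apart. Cox5a (51.8 and 40.6, 0.783), Cox5b (477.4 and 374.5, 0.784), Cox6c (920.9 and 729.4, 0.792), Cox6b1 (801.6 and 659.4, 0.823), Cox7a2 (485.2 and 407.9, 0.841), Cox6a1 (738.3 and 640.8, 0.868) and Ndufa4, once counted in complex I (785.4 and 687.8, 0.876), made up the rest.

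Complex V was lower in all 16 subunits. In the catalytic head Atp5b, the beta subunit with the catalytic sites, had 945.1 and 781.2 CPM (ratio 0.827, 0.798 to 0.856), the alpha subunit Atp5a1 483.3 and 379.5 (0.785, 0.747 to 0.825), the gamma subunit Atp5c1 381.1 and 353.4 (0.927), Atp5d 438.6 and 373.0 (0.850) and Atp5e 679.9 and 513.5 (0.755). The 5 genes of the head summed to a ratio of 0.820 (0.804 to 0.836). Of the membrane part Atp5k (subunit e) had 572.4 and 381.1 (0.666, 0.635 to 0.698) and Atp5mpl 601.7 and 446.2 (0.742). Highest in ratio were Atp5j with 722.0 and 705.5 (0.977, 0.941 to 1.02) and Atp5l with 54.0 and 51.3 (0.9496, 0.824 to 1.09), both with intervals that include 1. A pseudogene row near in sequence to Atp5l, Atp5l2-ps, held 43.1 and 58.9 CPM, so the level of Atp5l is uncertain. Atp5s, a factor that acts on the synthase, had 12.6 and 9.09 (0.724, 0.522 to 0.9996).

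The c ring of complex V is encoded by 3 genes whose mature proteins are the same. Atp5g1 had 316.9 and 265.8 CPM at P6 and P15 (ratio 0.839, 0.790 to 0.891), Atp5g3 188.3 and 135.4 (0.719, 0.663 to 0.780) and Atp5g2 28.9 and 9.77 (0.338, 0.255 to 0.443). Atp5g2 had the lowest ratio of all 89 genes. It made up 5.41% of the UMIs of the 3 genes at P6 (Clopper-Pearson interval 4.74 to 6.15) and 2.38% at P15 (1.86 to 2.98), while Atp5g1 went from 59.3% to 64.7%.

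Apart from the shares within paralog groups, which are shares of UMIs, levels of different genes were compared first per kilobase of merged exons. On that scale Cox8a (1152 CPM per kilobase), Cox6b1 (1132) and Cox6a1 (1052) were highest at P6, and Cox6b1 (931.4), Cox6a1 (912.8) and Uqcrb (832.2) at P15. The lowest subunits with 100 UMIs or more were Cox4i2 (2.16) and Ndufa4l2 (2.63) at P6 and Atp5g2 (5.83) and Ndufs1 (6.93) at P15. Since a UMI counts 1 molecule whatever its length, this scale ranks the long-exon genes, such as Ndufs1, lower than the plain level does. By plain CPM the order was another. Cox4i1 (1313), Atp5b (945.1) and Cox6c (920.9) were highest at P6, and the same genes at P15 (1058, 781.2 and 729.4).

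Tissue-restricted paralogs of complex IV had few UMIs. Cox6b2, known from testis, had 37 UMIs at P6 and 42 at P15, which is 0.600% (0.423 to 0.826) and 0.857% (0.618 to 1.16) of the UMIs of Cox6b1 and Cox6b2. Cox7a1, known from heart and muscle, had 10 and 30 UMIs, 0.134% (0.0643 to 0.247) and 0.468% (0.316 to 0.668) of the UMIs of the Cox7a group, whose other UMIs were those of Cox7a2 (49.8% and 46.9%) and Cox7a2l, a factor of supercomplex assembly (50.1% and 52.6%). Per kilobase of exon Cox7a2 stood at 513.9 and 432.0 CPM and Cox7a2l at 330.5 and 309.6. The muscle form Cox8b had 0 of 3773 UMIs of its group at P15, with an upper limit of 0.0977%. Both Cox6b2 and Cox7a1 were below the minimum for a counted ratio.

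Cox4i2 and Ndufa4l2, the paralogs linked to low oxygen, were the genes with the highest ratios of P15 to P6. Cox4i2 (chr2:152754173-152765037) had 13 UMIs or 1.70 CPM at P6 (0.905 to 2.91) and 174 or 23.6 at P15 (20.2 to 27.4), a ratio of 13.9 (7.91 to 26.6). Ndufa4l2 (chr10:127514967-127517154) had 22 UMIs or 2.88 CPM (1.80 to 4.36) and 192 or 26.0 (22.5 to 30.01), a ratio of 9.05 (5.81 to 14.8). Even so their UMIs made up 2.18% of the Cox4i pair (1.87 to 2.53) and 3.65% of the Ndufa4 pair (3.16 to 4.19) at P15, from 0.129% and 0.365% at P6.

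Both are known from pericytes, and pericyte genes moved with them. In the P15 cells with a Ndufa4l2 UMI the 10 pericyte genes summed to 3037 CPM, against 135.8 in the P15 cells without. The 130 P15 cells with at least 3 pericyte UMIs held 79.7% of the Ndufa4l2 UMIs and 45.4% of the Cox4i2 UMIs. In the cells with fewer, Ndufa4l2 stood at 2.23 CPM at P6 (1.30 to 3.57) and 5.81 at P15 (4.13 to 7.95), and Cox4i2 at 1.57 (0.814 to 2.75) and 14.2 (11.5 to 17.3). In those cells the P15 interval lay above the P6 interval for both genes. Without the barcodes holding at least 3 pericyte or 3 rod UMIs Cox4i2 took 1.33% of its pair at P15 and Ndufa4l2 0.850%. The part that RNA of pericytes plays in these lower levels was not tested.

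**Figure D3:**
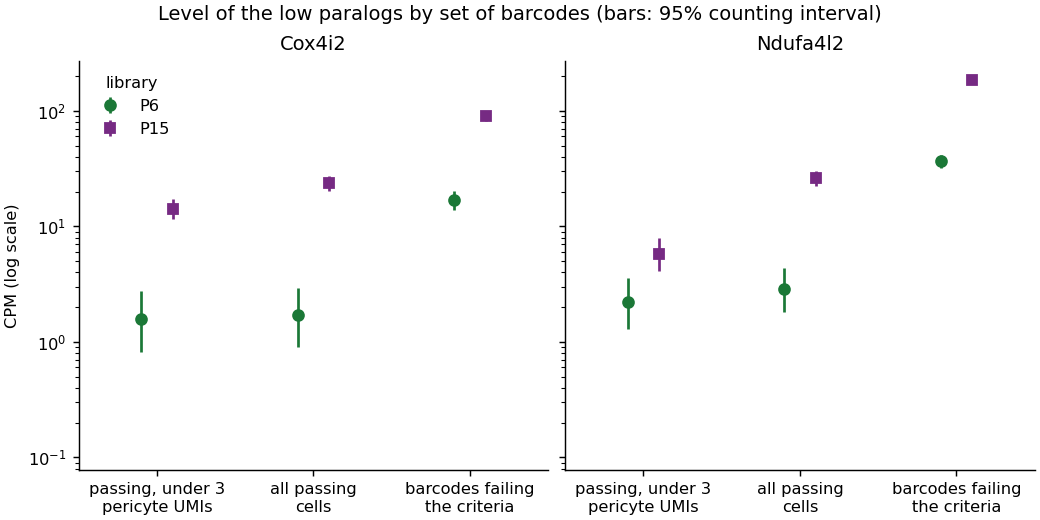
Level of Cox4i2 and Ndufa4l2 in CPM (y axis, log scale) in passing cells with under 3 pericyte UMIs, in all passing cells and in barcodes that failed the criteria (x axis), for P6 (circles) and P15 (squares) with 95% counting intervals. P15 lies above P6 in each set, and the failing barcodes are highest, with Ndufa4l2 at 186.1 and Cox4i2 at 90.8 at P15.

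Genes encoded in the mitochondria were lower at P15 as well. The 11 mt- genes with a row in both tables summed to 13795 CPM at P6 (13712 to 13878) and 11182 at P15 (11106 to 11258), a ratio of 0.811 (0.803 to 0.818), among cells chosen to have at most 5% of their UMIs from mt- genes. The protein genes among them stood at 0.834 and the ribosomal RNAs mt-Rnr1 and mt-Rnr2 together at 0.705. Within these groups the genes differed: the complex IV subunit mt-Co1 had 581.0 and 322.5 (0.555, 0.528 to 0.584), the complex III subunit mt-Cytb 4293 and 3448 (0.803), and the complex I subunits mt-Nd1 3657 and 3092 (0.846), mt-Nd4 1511 and 1438 (0.952), mt-Nd2 543.1 and 514.5 (0.947), mt-Nd5 256.8 and 192.7 (0.750), mt-Nd3 174.6 and 144.4 (0.827) and mt-Nd6 257.5 and 254.4 (0.988). The RNA mt-Rnr2 had 2280 and 1540 (0.676) and mt-Rnr1 232.5 and 230.5 (0.992, 0.927 to 1.06). Rows of mt-Co3 at P6 (6 UMIs) and mt-Atp6 at P15 (4 UMIs) had no counterpart, and both rows were nearly empty. The protein genes mt-Co2, mt-Atp8 and mt-Nd4l had no row at either age. Of the mt- genes of complex IV only mt-Co1 was thus in the sum, and none of complex V was. Every mt- sum and share given here covers only the mt- genes with rows.

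Cells of the same library differed in the members by cluster, and the clusters, named in the source data, were made from all genes, so the following is a description. Primitive cells were highest at both ages, with 37295 CPM at P6 (36906 to 37687) and 32326 at P15 (31332 to 33343), which is 1.36 and 1.32 times the other labelled cells. At P6 they were followed by Proliferative (29359), Cap-Venous (28129), Tip (27184) and Stalk (26907), then Venous (25746), Cap-Arterial (25091), Capillary (24348) and Arterial (24316) cells. Tip and Stalk overlapped in their intervals, as did each neighbouring pair from Venous to Arterial. At P15 Proliferative (29141) and Cap-Venous (25590) were again next, Arterial (24089), Cap-Arterial (23889), Tip (23854) and Stalk (23216) overlapped in their intervals, and Capillary (21593) was lowest. The interval of the 11 P15 Arterial cells also reached that of Cap-Venous cells. The 2 labelled P15 Venous cells were too few for a level.

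The Primitive cells had fewer endothelial marker UMIs than the other clusters, with a sum of 5518 CPM at P6 (7748 to 14288 elsewhere) and 11849 at P15 (12325 to 18699 in clusters with at least 10 cells). Their rod sum was 37.2 CPM at P6 (24.6 to 65.8 elsewhere) and 992.8 at P15 (75.96 to 132.4 in the other clusters of that size). At P15 4 Primitive cells held at least 3 rod UMIs. The pericyte sum of Primitive cells at P15 was 258.3, within the range of the other clusters of that size (40.8 to 454). Without barcodes holding at least 3 pericyte or 3 rod UMIs, 8 of the 36 P15 Primitive cells, the P15 ratio to the other labelled cells was 1.33, and the P6 ratio 1.36.

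Primitive cells held many members at once above the other labelled cells. At P6 49 of 87 members with at least 100 UMIs in labelled cells had a high ratio (at or above the inverse of 0.8), against 14.8% of all genes, and at P15 36 of 75, against 22.1%. Without those pericyte and rod barcodes the P15 count was 39 of 75, against 23.0%. Among the subunit genes Atp5g1 (571.3 CPM, 1.85 times the other cells, 1.69 to 2.04) and Cox7b (635.0, 1.81, 1.65 to 1.97) led at P6. The pseudogene copy Cox6c2 had the largest ratio of the members, on 19 UMIs only (1.95, 1.12 to 3.22). Uqcrc2 was the member lowest against the other cells (0.608, 0.405 to 0.880), with Ndufaf7 (0.652) and Ndufaf5 (0.705) next. At P15 Ndufb11 (1.98, 1.48 to 2.59), Cox7a2l (1.94, 1.57 to 2.38) and Sdhc (1.82, 1.14 to 2.78) led, and Uqcrc2 was again lowest (0.603, 0.161 to 1.59), there on 4 UMIs.

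Capillary cells combined few nuclear members with the most mt- UMIs. At P6 they held 24348 CPM of members and 25260 of mt- genes, 0.852 and 2.12 times the other labelled cells, and at P15 21593 and 18415, 0.857 and 1.82 times. They thus had 0.964 member UMIs for each mt- UMI at P6 and 1.17 at P15, where the other P6 clusters had from 2.16 (Cap-Arterial) to 2.91 (Primitive). Both kinds of mt- RNA were high, with 20736 CPM of protein genes and 4513 of ribosomal RNA at P6, against 9483 and 2636 in Cap-Venous cells. Of the members 32 of 87 had a ratio of at most 0.8 at P6, against 23.2% of all genes, while at P15 the count of 28 of 75 was close to the 34.8% of all genes. Sdha was an exception at P6 (193.2 CPM, 1.33, 1.07 to 1.62). Capillary cells were also the shallowest, with a median of 3204 UMIs at P6 and 2268 at P15, and with each cell thinned to 3000 UMIs their ratio of summed members to the other labelled cells was 0.871 at P6 and 0.951 at P15, where 12 of 42 cells were deep enough.

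**Figure D4:**
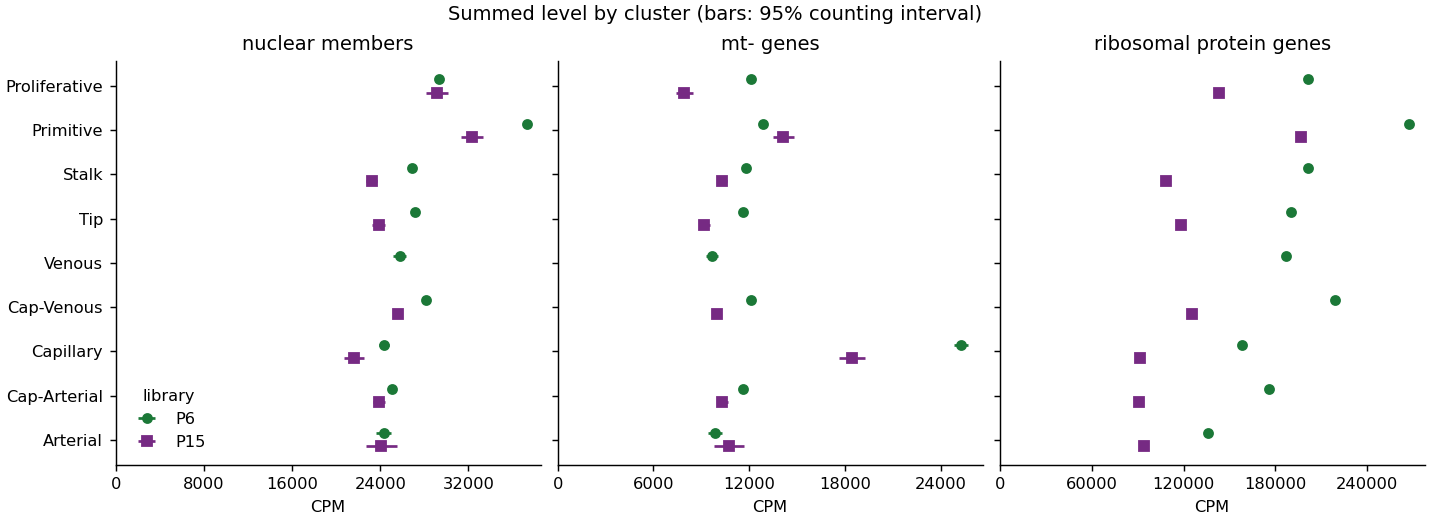
Summed level of the nuclear members, the mt- genes and the ribosomal protein genes (x axes, CPM) in each cluster (y axis) for P6 (circles) and P15 (squares), with 95% counting intervals; clusters with under 10 cells are left out. Primitive cells are farthest right for nuclear members and ribosomal protein genes, and Capillary cells for mt- genes.

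At P6 the summed level was low on the arterial side as well, at 0.856 (0.831 to 0.880) times the other labelled cells in Arterial and 0.876 (0.864 to 0.889) in Cap-Arterial cells. At P15 these ratios were 0.962 (0.907 to 1.019) and 0.948 (0.924 to 0.971), and the first interval included 1. Low ratios were found at P6 for 30 of 87 members in Arterial cells, a share close to the 32.1% of all genes, and for 27 of 87 in Cap-Arterial cells, against 22.7%. Ndufa8 was the lowest in Arterial cells (136.7 CPM, 0.482, 0.317 to 0.703) and was also low in Tip cells at P6 (202.0, 0.695, 0.603 to 0.796) and at P15 (260.4, 0.654, 0.508 to 0.832), whereas in P15 Cap-Venous cells it had the highest ratio of the members (476.7, 1.46, 1.27 to 1.68). In P6 Cap-Arterial cells Atp5l (32.3, 0.588, 0.383 to 0.866) and Ndufa12 (155.5, 0.641, 0.533 to 0.765) were low and Cox7a2l (650.8, 1.38, 1.26 to 1.51) high. Cox7a2l had the lowest ratio of the members in P6 Proliferative cells (338.6, 0.655, 0.599 to 0.716), where Ndufaf2 (97.3, 1.39, 1.16 to 1.65) was among the highest. In P15 Proliferative cells, of which there were 14, Sdhb (403.2, 2.06, 1.48 to 2.82), Ndufb3 (265.8, 1.86, 1.23 to 2.73) and Atp5a1 (678.1, 1.76, 1.36 to 2.23) led.

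The level of members followed that of the ribosomal protein genes more than that of the mt- genes. Across the clusters with at least 10 cells Pearson r with ribosomal protein CPM was 0.917 at P6 (n = 9, Spearman rho 0.917) and 0.942 at P15 (n = 8, rho 0.738), and with mt- CPM −0.146 (rho 0.383) and −0.152 (rho −0.214). Across single cells the share of members ran with the ribosomal protein share at r = 0.666 (n = 1424) and 0.586 (n = 1644) and with the mt- share at −0.150 and −0.0138. Points of a library share its preparation and the shares have 1 total in common, so these are descriptions. The median cell gave 2.67% of its UMIs to members at P6 (quartiles 2.37 and 3.10) and 2.45% at P15 (2.15 and 2.75), from a median of 56 and 51 members detected.

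Within clusters the direction by age was the same for the sum. In the 8 clusters with at least 10 labelled cells at both ages, the summed members had a ratio of P15 to P6 below 1 in all 8, from 0.863 (Stalk) to 0.993 (Proliferative), and the intervals in Proliferative and Arterial cells included 1. Complex IV ran from 0.769 (Capillary) to 0.941 (Arterial) and complex V from 0.751 (Capillary) to 0.997 (Arterial). Complexes II and III were above 1 in 6 of the 8 clusters each. The mt- sum was below 1 in 6 clusters and above 1 in Primitive (1.10) and Arterial cells (1.09, 0.986 to 1.20), and the ribosomal protein genes were below 1 in all 8, from 0.519 to 0.735.

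Of 87 members with at least 100 UMIs over these clusters, 16 had a ratio below 1 in all 8 (18.4%), against 6.68% of all genes. They were Atp5d, Atp5e, Atp5g2, Atp5h, Atp5k, Cox4i1, Cox6c, Cox7b, Cox8a, Ndufab1, Ndufaf2, Ndufb5, Ndufb9, Ndufc2, Ndufs6 and Uqcrh. Cox7b ran from 0.466 (Proliferative) to 0.954 (Cap-Arterial), and Atp5k from 0.616 (Capillary) to 0.842 (Proliferative). Ratios above 1 in all 8 were held by 2 members, Ndufa1 and Ndufa8 (2.30%, against 7.02% of all genes). Members and all genes were not matched for UMIs in these shares. A gene with few UMIs can change sides between clusters by counting error. Atp5g2 had 20 UMIs at P15 over these clusters. Ndufa8 ran from 1.06 (Primitive, 0.786 to 1.403) to 1.79 (Arterial, 0.826 to 3.65), and in Cap-Venous cells, where it rested on most UMIs, it had 286.3 and 476.7 CPM (1.67, 1.47 to 1.89). Uqcrb was above 1 in 7 of the 8, up to 1.63 in Proliferative cells (516.0 and 843.1), and below 1 in Capillary cells (472.5 and 444.5, 0.941, 0.673 to 1.29).

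**Figure D5:**
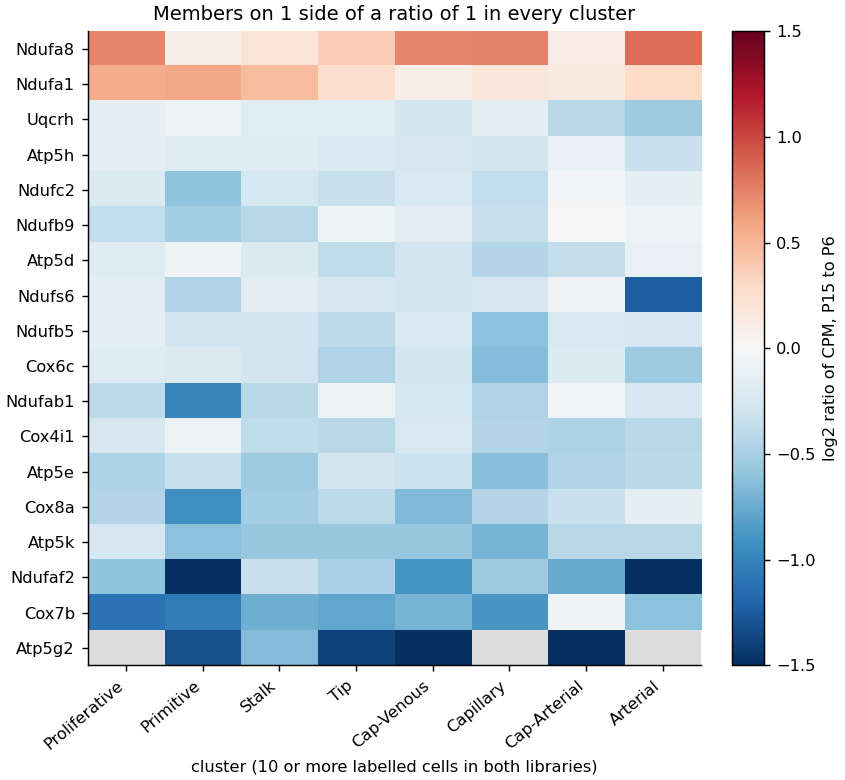
Log2 ratio of CPM of P15 to P6 (colour, ends of the scale set at ±1.5) for the 18 members that lie on 1 side of a ratio of 1 in all 8 clusters (rows), by cluster (columns); grey cells have 0 UMIs at P15. Ndufa8 and Ndufa1 are the only rows above 0, and the bottom rows, Ndufaf2, Cox7b and Atp5g2, hold most of the dark cells below it.

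Regulators of mitochondrial genes had low levels. Of a list of 15, all had rows and 12 had 100 UMIs or more, with a median ratio of P15 to P6 of 0.911 (median of all genes 1.09), 2 high and 3 low, where 33.3% and 19.3% of all genes were high and low. Nrf1, which acts through the letters GCGCATGCG, had 28.1 and 25.9 CPM (ratio 0.922, 0.754 to 1.13), Gabpa, an ETS factor, 20.4 and 17.0 (0.831, 0.652 to 1.06), and Yy1 77.4 and 82.1 (1.06, 0.945 to 1.19). The nuclear receptor Esrra had 10.6 and 14.4 (1.36, 1.01 to 1.84) and Tefm, an elongation factor of mitochondrial transcription, 8.76 and 12.1 (1.38, 0.993 to 1.92). Tfam, which packs and transcribes mitochondrial DNA, had 31.6 and 24.96 (0.789, 0.648 to 0.960), the helicase Twnk 8.11 and 5.29 (0.653, 0.426 to 0.990) and Lrpprc, which stabilises mitochondrial mRNAs, 18.6 and 14.4 (0.774, 0.597 to 1.003). The coactivator Ppargc1a had 2 UMIs and 1 UMI, under the limit of 3 counts.

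Electron carrier, assembly and biogenesis genes with other names made up a further list. Of 43 listed, 42 had rows in both tables and 36 had 100 UMIs or more, with a median ratio of 1.03, 4 high and 3 low (33.3% and 19.3% of all genes). Higher at P15 were Sdhaf4, a complex II assembly factor (49.4 and 77.1, 1.56, 1.37 to 1.78), Higd1a, a small complex IV partner (228.1 and 333.0, 1.46, 1.37 to 1.55), and the complex I factors Foxred1 (15.95 and 20.8, 1.30) and Nubpl (16.9 and 21.2, 1.255, 0.987 to 1.60). Lower were Cox15, needed for heme A (8.89 and 5.02, 0.565, 0.368 to 0.855), Chchd4, an importer of the intermembrane space (31.0 and 21.3, 0.687, 0.558 to 0.845) and Sdhaf3 (18.1 and 12.8, 0.707, 0.538 to 0.925). Cytochrome c (Cycs) had 175.4 and 143.0 (0.815, 0.752 to 0.885) and Cyc1, the cytochrome c1 of complex III, 189.0 and 180.9 (0.957, 0.888 to 1.03).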

How the data were processed

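Processed data were 2 tables of UMI counts per gene and cell barcode, deposited by the authors as counts without normalization, 1 table per age (1984 barcodes at P6 and 2141 at P15). The labels list Seurat 3.0 and the mm10 build in the submitters' processing notes without a role, and the aligner for these counts is not given in the sources used here. Ensembl identifiers were matched to symbols without version (22695 of 22734 at P6 and 21745 of 21785 at P15), and rows of 1 symbol were added. Identifiers without a symbol held 0.0145% of UMIs at P6 and 0.0146% at P15 and were left out.

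Cells were kept by the study's exclusion criteria, read as 200 to 3500 genes, at most 5% mt- UMIs and no Hbb-bt, Neurod1 or Cd63 UMI. Clusters are those of the source data, with Primordial-Proliferative called Proliferative and Primordial called Primitive. Values by cluster use all labelled cells, also those that did not meet the criteria. No doublet caller was run, and barcodes with Xist and Y-linked UMIs were left out as an alternative. UMIs were summed over cells, and intervals at 95% are exact Poisson, conditional binomial or Clopper-Pearson. With 1 library per age no test was made. Gene coordinates and exon lengths are from GENCODE M21 (GRCm38), and promoters from RefSeq (GRCm38.p6). Computation used Python 3.11.15, numpy 2.4.6, scipy 1.17.1, pandas 2.3.3 and matplotlib 3.10.9, and the ratio step was first tested on simulated data.

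The genes, lists, cluster comparisons and limits were chosen with earlier results of these data known. Genes named are the 10 highest in level, the 10 with the highest and the 10 with the lowest ratio, members of paralog groups, core subunits, the 3 members highest and the 3 lowest against other cells in a cluster, genes at 0, mt- genes, and those of 2 pathway lists. Other members, and all genes named for P15 clusters, were named after their values were seen, and not every gene the rule gives in a P6 cluster is named. One gene of the set is counted in the sums and is not reported here. Left out were 7 rows named as pseudogenes, of which Ndufb1-ps held 543.6 CPM at P6 and 462.9 at P15. Alternatives covered the cells, the total, thinning, weighting, the gene list and the limits. The Muller glia list had 6 of 7 genes with a P6 row, and the immune and astrocyte lists 5 of 6 and 2 of 3.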

Additional observations from a re-analysis of the deposited data

Results flagged for a closer look

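Barcodes that failed the exclusion criteria were not part of the comparisons of whole libraries. Those with a cluster label were part of the cluster comparisons. All failing barcodes together held 2 members at a higher level than the passing cells. Cox4i2 stood there at 16.8 CPM at P6 and 90.8 at P15 (1.70 and 23.6 in passing cells), and Ndufa4l2 at 36.6 and 186.1 (2.88 and 26.0). At P15, 171 of these 497 barcodes held at least 3 pericyte UMIs and with them 89.6% of the Cox4i2 and 96.9% of the Ndufa4l2 UMIs of the failing barcodes. At P6, 13 of 560 did, with 35.8% and 34.6%.

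Some members had opposite ratios to the other labelled cells in the Cap-Arterial cluster of the 2 libraries. Cox7a2l had a ratio of 1.38 at P6 (1.26 to 1.51) and 0.685 at P15 (0.551 to 0.844), and Ndufaf8 had 0.761 at P6 (0.543 to 1.04) and 1.32 at P15 (0.794 to 2.11), with both intervals including 1. These differences were not tested, since there was 1 library per age. The P15 labels cover 68 Cap-Arterial cells, against 162 at P6.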

How the results depend on the processing

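No paired analysis was possible because each age had 1 library, and for the same reason no replicate could be left out. Of 95 values computed under 15 other settings, 57 stayed within the counting interval of the reported value (for counts of genes, within 1.5 times) and 38 moved. Of the ratios of sums 0 changed to the other side of 1. Counts of genes and paralog shares could not be scored for direction. The ratio of P15 to P6 of the summed members was 0.857 over every barcode, 0.794 without mt- and ribosomal protein UMIs in the total, 0.8765 after thinning to 3000 UMIs, 0.89 as a mean over cells, 0.915 with clusters at equal weight and 0.81 relative to the median of all genes, a setting chosen after seeing the data. In the order labelled cells, every barcode, a 10% mitochondrial limit, no mt- and ribosomal protein UMIs, thinning, mean over cells and relative to the median, the mt- ratio was 0.836, 0.879, 0.798, 0.729, 0.758, 0.819 and 0.744. Members with a ratio at or above the inverse of 0.8 and at or below 0.8 numbered 3 and 45 without mt- and ribosomal protein UMIs, 3 and 42 relative to the median and 8 and 10 with clusters at equal weight, and 2 and 4 passed a fold of 1.5. Over every barcode the share of Cox4i2 was 0.647% at P6 and 4.33% at P15 and that of Ndufa4l2 2.22% and 11.2%. At P15 Ndufa4l2 took 2.45% in labelled cells and 0.850% without barcodes holding at least 3 pericyte or 3 rod UMIs, where Cox4i2 took 1.33%. Against other labelled cells the P6 Primitive ratio was 1.49 without mt- and ribosomal protein UMIs, 1.402 thinned, 1.43 as a mean over cells and 1.405 without cells failing the criteria, and the P15 one 1.46 without mt- and ribosomal protein UMIs and 1.39 as a mean over cells. The Capillary ratio was 0.814 without mt- and ribosomal protein UMIs and 0.871 thinned at P6, and 0.951 thinned (12 of 42 cells deep enough) and 0.79 as a mean over cells at P15. The 4 cluster ratios without those pericyte and rod barcodes, added after seeing the data, stayed within their intervals. The cause of these shifts was not tested. Depth limits the genes with few UMIs, such as Cox7a1 and Cox6b2, and the clusters with few P15 cells.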
